A study of Arabidopsis thaliana with 6 samples.

Results

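A group of 53 genes was drawn from the 5330 genes in the authors' deposited tables of Arabidopsis thaliana seedlings. They are the genes whose deposited description names a disease resistance protein or a TIR-NBS, CC-NBS, NBS-LRR or TIR domain protein, leaving out those described as receptor kinases or receptor-like. The descriptions were meant to catch intracellular NLR immune receptors, but the RefSeq products went against that name for 16 of the 53. RefSeq calls 14 of these receptor like proteins (AtRLPs), and the other two, AT2G34930 and AT4G13820, carry leucine-rich repeats with no nucleotide-binding domain in the product name. These 16 are called surface-type genes here, and the other 37 nucleotide-binding genes. By RefSeq product, 24 of the 37 are of the TIR class, 6 are of the coiled-coil class and 7 name no N-terminal domain. The deposited descriptions alone put 18 members in the TIR class and 1, CW9, in the coiled-coil class, and leave 34 without a class.

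The seedlings were Columbia-0 wild type, labelled Col-0, and plants in the same ecotype with the genotype label epl1a epl1b, which names both Arabidopsis genes for Enhancer of Polycomb, a subunit of the NuA4 histone H4 acetyltransferase. There were 3 libraries per genotype, which the design text says came from independent experiments. Seed of both was kept 3 days at 4 °C and plants grew on medium with 1% sucrose at 22 °C, with 16 h of light (100 µmol per square metre and second) and 8 h of dark. Whole seedlings were taken at 14 days and zeitgeber 8 h, under these control conditions. The labels do not name the alleles. Because RNA came from whole seedlings, fewer cells of a type and less RNA per cell cannot be told apart in any value.

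NLR proteins are receptors inside plant cells that detect pathogen effectors, or their action on host proteins, through a leucine-rich repeat region and a nucleotide-binding switch. TIR-class receptors carry an NAD-cleaving enzyme domain at the N-terminus and signal through EDS1 with PAD4 or SAG101 to helper NLRs such as ADR1. Many coiled-coil receptors act as calcium-permeable channels at the plasma membrane once they assemble. Receptor like proteins sit at the cell surface, lack a kinase domain and detect molecules outside the cell. In Arabidopsis many NLR genes lie in clusters, are expressed at low levels, and are held in check because raised activity slows growth.

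Values are normalised reads, that is reads in a gene divided by a library's scaling factor, which was recovered from the authors' log2 fold changes and is 1 for Col-0 replicate 1. Reads summed over all listed genes ranged from 7355421 to 10938542 per library. These sums are not library depths, because only genes past the authors' thresholds are in the tables. Of the genes named in the genotype, EPL1A (AT1G16690) went from 360.0, 378 and 364 normalised reads in Col-0 to 128, 121 and 124, and EPL1B (AT1G79020) from 743, 762 and 654 to 17029, 16995 and 17128. EPL1B reads rose, but the labels do not name the alleles, and read counts do not show whether the transcript is intact. Whether the genotype matches the label was not tested, so these libraries are called epl1ab-labelled, and every direction is drawn between labels. Seed maturation markers, of which 14 of 15 were listed and all 14 higher, summed to 401, 368 and 43.9 normalised reads in Col-0 and to 1131, 198521 and 291148 in the epl1ab-labelled libraries, so replicates 2 and 3 stand apart from replicate 1. Leaf markers had 3 of 7 listed, all lower, with sums of 786803 to 890402 against 327814 to 392133. Flower markers had 5 of 6 listed, all higher, with sums of 118 to 132 against 600 to 859, and root markers had 1 of 9 listed, higher, with sums of 7.52 to 20 against 29.9 to 46.9. Their part in the changes below was not tested.

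Most of the 53 genes were higher in the epl1ab-labelled seedlings. The authors' deposited tables list 41 of them higher (77.4%) and 12 lower (22.6%), where 66.1% of all listed genes were higher and 33.9% lower. All of these genes had passed the authors' thresholds on the same libraries (a log2 fold change of 1 or more in size, false discovery rate under 0.05), so a further test on them is not independent of that choice. edgeR's quasi-likelihood test, adjusted by Benjamini-Hochberg over the 4773 genes left by its expression filter, took in 51 of the 53 and called 39 higher and 12 lower. Over all genes in that fit it called 63.1% higher and 36.9% lower. Libraries of the 2 genotypes did not overlap for 53 of the 53 genes, and for 98.5% of all listed genes. The median log2 fold change in the deposited tables was 1.63 for the 41 higher members (1.94 for all genes listed higher) and -1.50 for the 12 lower members (-1.45 for all listed lower). The calls on the higher side depend on the scaling. DESeq2 with its own size factors, which moves the median of all log2 fold changes by -1.11, called 13 members higher and 12 lower. TMM factors, which move it by -0.43, called 38 and 12. Both sets of factors were estimated from the listed genes alone, all selected as changed and 66.1% of them higher. A scaling from such genes cannot decide which of the higher calls hold.

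The share listed higher differed in value between the classes, and 66.1% of all listed genes were higher. Of the 24 TIR genes 19 were listed higher and 5 lower, and edgeR called 17 higher and 5 lower. Coiled-coil genes split evenly, with 3 higher and 3 lower in both. Of the 7 nucleotide-binding genes without a named N-terminus 5 were higher and 2 lower, and of the 16 surface-type genes 14 were higher and 2 lower. With DESeq2's own size factors the calls were 5 higher and 5 lower for TIR, 0 and 3 for coiled-coil, 2 and 2 for genes without a named N-terminus, and 6 and 2 for surface-type genes. Taken by the deposited descriptions, the TIR class held 13 higher and 5 lower by edgeR, and 4 and 5 with DESeq2's own size factors. Whether the classes differ from each other was not tested.

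**Figure D1:**
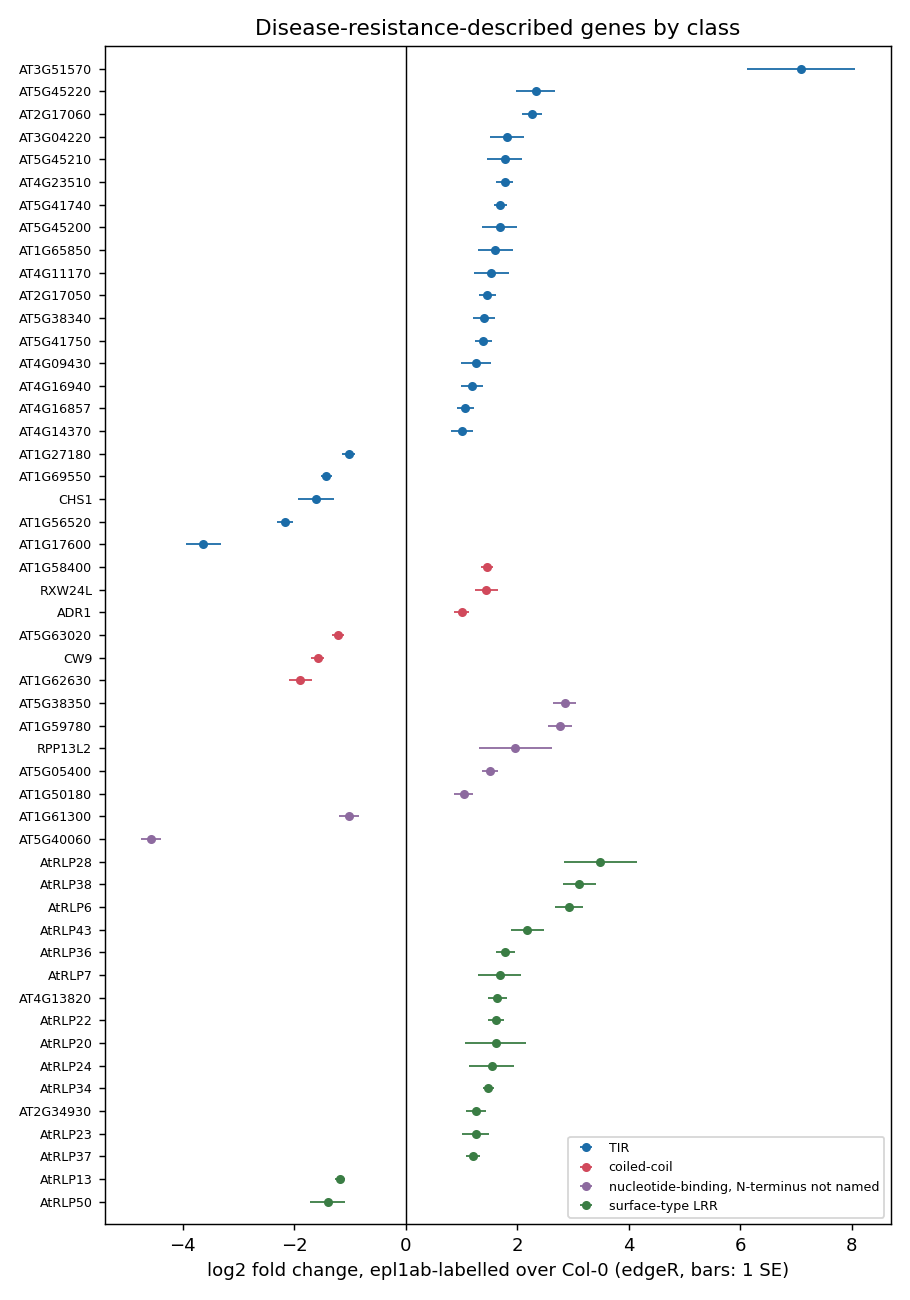
Log2 fold change of epl1ab-labelled over Col-0 seedlings for the 51 members in the edgeR fit, grouped by RefSeq class on the vertical axis; points are edgeR estimates and bars 1 SE (3 libraries per genotype). TIR and surface-type genes lie mostly to the right of 0, the 6 coiled-coil genes lie evenly on either side, and AT5G40060 has the lowest value, -4.57; the point for AT3G51570 depends on the prior count, since it had 0 reads in Col-0.

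The sequence upstream of the gene start is shown for 6 members with large changes or many matches: AT5G40060, the largest fall, and 5 that rose. Each is the 300 bases before the annotated start on the gene's strand, from the TAIR10.1 RefSeq genome, written 5′ to 3′. Capitals mark TTGAC and its reverse complement GTCAA, the core of the W box that WRKY factors bind, and each strand was searched and overlapping matches were counted separately. The windows are chr5:16034141-16034440 on the plus strand for AT5G40060, chr5:15328269-15328568 on the plus strand for AT5G38350 (nucleotide-binding), chr1:21699696-21699995 on the minus strand for AT1G58400 (coiled-coil), chr1:21999633-21999932 on the minus strand for AT1G59780 (nucleotide-binding), chr2:14031698-14031997 on the plus strand for AtRLP28 and chr3:8229620-8229919 on the minus strand for AtRLP38.
AT5G40060: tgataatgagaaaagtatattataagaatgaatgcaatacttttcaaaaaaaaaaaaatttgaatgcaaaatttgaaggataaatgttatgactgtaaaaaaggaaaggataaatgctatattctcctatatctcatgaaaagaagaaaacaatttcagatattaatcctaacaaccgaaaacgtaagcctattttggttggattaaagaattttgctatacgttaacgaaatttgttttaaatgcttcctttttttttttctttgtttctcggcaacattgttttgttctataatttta
AT5G38350: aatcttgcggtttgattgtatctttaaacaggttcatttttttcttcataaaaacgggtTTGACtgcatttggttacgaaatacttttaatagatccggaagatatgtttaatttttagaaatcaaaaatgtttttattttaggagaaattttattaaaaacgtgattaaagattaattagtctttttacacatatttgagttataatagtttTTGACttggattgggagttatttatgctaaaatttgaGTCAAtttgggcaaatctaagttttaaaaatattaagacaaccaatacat
AT1G58400: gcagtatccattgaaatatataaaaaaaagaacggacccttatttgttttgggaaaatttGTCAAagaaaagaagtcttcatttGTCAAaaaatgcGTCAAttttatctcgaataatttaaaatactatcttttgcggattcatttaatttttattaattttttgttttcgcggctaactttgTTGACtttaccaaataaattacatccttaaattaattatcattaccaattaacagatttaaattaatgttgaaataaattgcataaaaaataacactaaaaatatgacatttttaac
AT1G59780: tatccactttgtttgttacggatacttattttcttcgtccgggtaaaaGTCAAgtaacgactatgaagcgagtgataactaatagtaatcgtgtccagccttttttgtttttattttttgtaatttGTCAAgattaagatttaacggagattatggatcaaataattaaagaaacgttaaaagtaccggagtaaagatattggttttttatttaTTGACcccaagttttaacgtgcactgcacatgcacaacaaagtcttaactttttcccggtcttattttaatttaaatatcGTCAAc
AtRLP28: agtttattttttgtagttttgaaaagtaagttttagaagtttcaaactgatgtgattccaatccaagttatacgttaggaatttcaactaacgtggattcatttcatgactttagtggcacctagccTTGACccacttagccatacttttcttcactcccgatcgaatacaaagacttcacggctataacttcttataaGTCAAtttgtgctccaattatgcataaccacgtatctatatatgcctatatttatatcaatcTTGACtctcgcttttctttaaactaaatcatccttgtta
AtRLP38: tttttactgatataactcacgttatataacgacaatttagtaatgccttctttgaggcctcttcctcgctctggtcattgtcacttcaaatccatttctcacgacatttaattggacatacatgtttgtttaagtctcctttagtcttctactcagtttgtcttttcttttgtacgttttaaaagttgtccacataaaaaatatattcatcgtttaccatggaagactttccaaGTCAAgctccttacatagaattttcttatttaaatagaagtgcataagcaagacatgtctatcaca

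AT5G40060 held 0 matches, AT5G38350 and AtRLP28 held 3 each, AT1G58400 and AT1G59780 held 4 each, and AtRLP38 held 1. Matches entered the choice of these 6, so they do not show how matches relate to direction. AT1G27180 and AtRLP50, listed lower, held 2 each, and AT5G41740 and AT5G05400, listed higher, held 0. Over all members, 37 of 53 windows (69.8%) held at least 1 match on either strand, against 13832 of 27443 (50.4%) for all nuclear protein-coding genes. Among members listed higher the share was 31 of 41 (75.6%), against 55.2% of all genes listed higher, and among members listed lower it was 6 of 12 (50.0%), against 45.8% of all listed lower. Surface-type genes held a match in 15 of 16 windows (93.8%) and TIR genes in 14 of 24 (58.3%). A match is a run of letters and not a measured binding site.

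The largest fall was in AT5G40060 (chromosome 5, 16034441 to 16039096, plus strand), whose deposited description gives TIR-NBS-LRR and whose RefSeq product gives NBS-LRR; it is named after its values were seen. Its normalised reads were 859, 949.6 and 836 in Col-0 and 30.3, 34.7 and 46.0 in the epl1ab-labelled ones. The highest epl1ab-labelled library was thus far below the lowest Col-0 library, with a log2 fold change of -4.57 ± 0.18 (SE; edgeR, Benjamini-Hochberg adjusted p = 1.18e-06, n = 3 per group), which is 23.7-fold lower. AT1G56520 (chromosome 1, 21174609 to 21179077, minus strand), a TIR-class gene, fell from 466, 516 and 565 to 129, 112 and 103 normalised reads, a log2 fold change of -2.17 ± 0.14 (edgeR adjusted p = 6.67e-06). The TIR-class gene AT1G69550 fell from 1370.0, 1503 and 1360.3 to 571, 517 and 491, a change of -1.42 ± 0.10 (edgeR adjusted p = 7.30e-06). In each of these genes the replicates of a genotype lay close together beside the gap between genotypes. The last of the lower TIR genes outside the next locus, AT1G27180, had a log2 fold change of -1.02 ± 0.12 (edgeR adjusted p = 9.39e-05).

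SOC3 (AT1G17600) and CHS1 (AT1G17610) both fell. They are TIR-class partners: CHS1 has no leucine-rich repeats, a mutant form of it gives a chilling-sensitive autoimmune plant, and SOC3 is the full-length receptor that this autoimmunity requires. SOC3 (chromosome 1, 6052936 to 6058114, minus strand) held 103, 76.3 and 121 normalised reads in Col-0 and 5.19, 9.65 and 9.21 in the epl1ab-labelled libraries, a log2 fold change of -3.63 ± 0.31 (edgeR adjusted p = 2.03e-05). CHS1 (6054922 to 6058357, plus strand) held 85.0, 90.23 and 59.8 against 16.5, 37.6 and 23.4, a log2 fold change of -1.61 ± 0.33 (edgeR adjusted p = 0.00188). In neither gene did the genotypes overlap. The genes lie on opposite strands and share 3193 bases, of 5179 in SOC3 and 3436 in CHS1, and no source used here says whether counting used strand, so reads of one and of the other cannot be told apart. TN2 (AT1G17615), the neighbouring gene that encodes another SOC3 partner, was not listed.

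**Figure D2:**
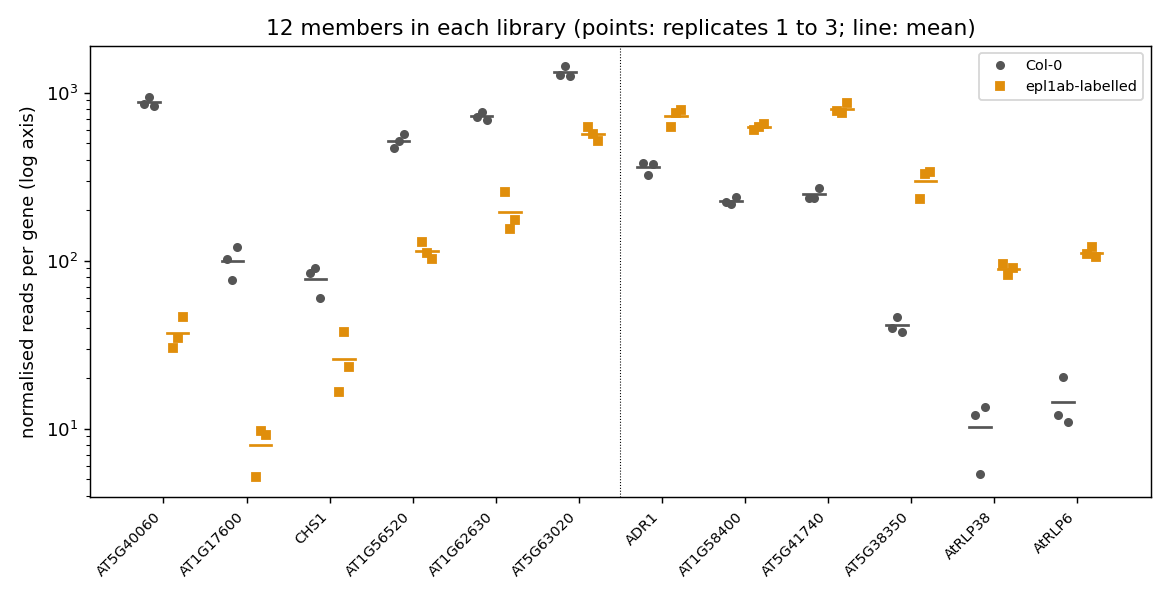
Normalised reads per gene (log axis) for 12 members in each of the 6 libraries; circles are Col-0, squares epl1ab-labelled, lines the mean of 3 replicates, and the dotted line separates genes listed lower (left) from genes listed higher (right). For AT5G40060 the Col-0 libraries lie between 836 and 949.6 and the epl1ab-labelled ones between 30.3 and 46.0; in each of the 12 genes the genotypes do not overlap.

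Among coiled-coil genes, the 3 that fell had high Col-0 counts. AT1G62630 (chromosome 1, 23185760 to 23189224, plus strand) went from 720.0, 770.2 and 686 to 258, 155 and 175 normalised reads, a log2 fold change of -1.89 ± 0.20 (edgeR adjusted p = 6.10e-05). CW9 (chromosome 1, 21902264 to 21905717, plus strand) went from 733, 868 and 733 to 260, 253 and 269, a change of -1.58 ± 0.11 (edgeR adjusted p = 9.29e-06). AT5G63020 (chromosome 5, 25283063 to 25286121, minus strand) went from 1280.0, 1434 and 1258 to 628, 568 and 515, a change of -1.22 ± 0.11 (edgeR adjusted p = 2.58e-05). In each of these genes every epl1ab-labelled library was below every Col-0 library. AT1G61300, a nucleotide-binding gene with no N-terminus named, showed the smallest fall of the 12, a log2 fold change of -1.02 ± 0.17 (edgeR adjusted p = 0.000768). Of its 50-base exon windows 23.9% occur elsewhere in the genome, so its reads may be split with copies. The same holds for AT1G62630, at 12.6% of windows, and for the lower TIR genes AT1G27180, at 18.5%, and AT1G69550, at 17.4%.

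ADR1 (chromosome 1, 12168768 to 12172119, plus strand), the helper NLR that acts downstream of TIR receptors with EDS1 and PAD4, had the smallest rise of the 41. It held 383, 322 and 375 normalised reads in Col-0 and 624, 760.0 and 785 in the epl1ab-labelled libraries, so the genotypes did not overlap. The log2 fold change was 1.01 ± 0.13 (edgeR adjusted p = 0.000184), but it turns to -0.11 (adjusted p = 0.551) with DESeq2's own size factors. The other two coiled-coil genes that rose, AT1G58400 and RXW24L, are neighbours. AT1G58400 (chromosome 1, 21695699 to 21699695, minus strand) rose from 225, 217 and 239 to 600, 621 and 650.2 normalised reads, by 1.46 ± 0.10 (edgeR adjusted p = 9.36e-06). RXW24L (21701185 to 21704982, minus strand) rose from 77.0, 87.0 and 51.2 to 203, 192 and 196, by 1.45 ± 0.21 (edgeR adjusted p = 0.000283). Both lose the call with DESeq2's own size factors, at log2 fold changes of 0.35 (adjusted p = 0.0559) and 0.34 (adjusted p = 0.286).

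The 19 TIR genes listed higher had a median Col-0 level of 35.4 normalised reads, and the 5 listed lower had 386. For all genes listed higher the median was 30.4, so a low start was not particular to this class. AT5G41740 (chromosome 5, 16688626 to 16693119, plus strand) was the highest in Col-0 of the TIR genes that rose, by reads in the gene. It went from 237, 235 and 272 normalised reads to 775, 762 and 874, a log2 fold change of 1.70 ± 0.12 (edgeR adjusted p = 7.75e-06). AT2G17060 (chromosome 2, 7422336 to 7427119, plus strand) rose from 34.0, 36.5 and 31.7 to 162, 188 and 144, by 2.27 ± 0.18 (edgeR adjusted p = 1.38e-05). AT4G23510 (chromosome 4, 12267516 to 12270739, minus strand) rose from 102, 93.5 and 100.0 to 280, 374 and 360, by 1.78 ± 0.16 (edgeR adjusted p = 2.42e-05). The spread between replicates was wider in AT4G11170 and AT3G04220. AT4G11170, known as RMG1 and as a gene whose expression responds to DNA methylation upstream of it, held 105, 44.04 and 75.6 normalised reads in Col-0 and 268, 212 and 175 in the epl1ab-labelled libraries (log2 fold change 1.54 ± 0.32, edgeR adjusted p = 0.00212). AT3G04220 held 20, 38.7 and 47.6 against 138, 106 and 129.7 (1.82 ± 0.31, edgeR adjusted p = 0.000677). Neither overlapped between genotypes. With DESeq2's own size factors AT4G11170 (log2 fold change 0.46, adjusted p = 0.2155) and AT3G04220 (0.72, adjusted p = 0.0692) lose their calls. AT4G14370 and AT4G16857 had the smallest TIR rises, 1.01 ± 0.20 and 1.07 ± 0.15 in log2 fold change, which turn to -0.09 and -0.04 with DESeq2's own size factors.

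Of the 5 nucleotide-binding genes without a named N-terminus that rose, AT5G38350 and AT1G59780 moved most. AT5G38350 (chromosome 5, 15328569 to 15331528, plus strand) held 40.0, 46.2 and 37.8 normalised reads in Col-0 and 233, 329 and 336 in the epl1ab-labelled libraries, a log2 fold change of 2.85 ± 0.20 (edgeR adjusted p = 8.73e-06). AT1G59780 (chromosome 1, 21993220 to 21999632, minus strand) held 26.0, 30.1 and 30.5 against 160.1, 246 and 187, a change of 2.77 ± 0.22 (edgeR adjusted p = 1.44e-05). AT5G05400 rose by 1.51 ± 0.15 in log2 fold change, and AT1G50180 by 1.05 ± 0.17, which turns to -0.07 with DESeq2's own size factors. Under that scaling AT5G05400 (log2 fold change 0.39, DESeq2 adjusted p = 0.0898) and RPP13L2 (0.82, DESeq2 adjusted p = 0.393) also lose their calls. RPP13L2, a homologue of the downy mildew resistance gene RPP13, had few reads: 2.0, 7.52 and 4.88 normalised reads against 12.1, 10.6 and 33.5, a change of 1.97 ± 0.66 (edgeR adjusted p = 0.0198). It loses the call in 3 of the 6 fits that leave out 1 library (adjusted p = 0.0735 without Col-0 replicate 1, 0.0597 without Col-0 replicate 3 and 0.0614 without epl1ab-labelled replicate 3).

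The TIR genes AT3G51570, AT5G17970 and AT5G49140 each had at most 1 read over the Col-0 libraries. AT3G51570 (chromosome 3, 19126329 to 19130705, plus strand) had 0 reads in the Col-0 libraries and 56 in the epl1ab-labelled ones, which puts it at least 15.2-fold higher when the floor is 3 reads over the group. AT5G17970 had 1 read against 24, a ratio of 19.5 with a 95% exact interval of 3.18 to 801.5, and AT5G49140 had 0 against 13, at least 3.52-fold higher by the same floor. AT5G17970 and AT5G49140 are the members that did not pass the edgeR filter. Intervals and floors cover counting error only. In AT3G51570 the reads came from every epl1ab-labelled library, with 10.4, 18.3 and 20.9 normalised reads.

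Of the 16 surface-type genes 14 rose by edgeR, where 63.1% of all genes in the fit were called higher, and 6 of the 14 keep the call with DESeq2's own size factors. AtRLP28 (chromosome 2, 14031998 to 14034433, plus strand) had the largest fitted change, from 4.0, 3.22 and 0 to 21.6, 21.2 and 46.0 normalised reads (log2 fold change 3.50 ± 0.66, edgeR adjusted p = 0.00129). AtRLP38 (chromosome 3, 8227222 to 8229619, minus strand) went from 12, 5.37 and 13.4 to 96.1, 82.0 and 90.4 (3.12 ± 0.30, edgeR adjusted p = 3.73e-05), and AtRLP6 from 12, 20.4 and 11.0 to 109, 121 and 105 (2.93 ± 0.26, edgeR adjusted p = 2.38e-05). AtRLP28, AtRLP38 and AtRLP6 were among the 8 lowest members per exon length in Col-0. AtRLP22 rose from 85.0, 76.3 and 92.7 to 238, 272 and 275 normalised reads (1.63 ± 0.14, edgeR adjusted p = 2.54e-05). AtRLP23, the receptor for the nlp peptide of microbial necrosis-inducing proteins, rose from 38.0, 26.9 and 43.9 to 89.2, 100.3 and 71.1 (1.26 ± 0.24, edgeR adjusted p = 0.00142). AtRLP20 and AtRLP24 had wide spreads, and AtRLP20 (1.62 ± 0.55, edgeR adjusted p = 0.0220) loses the call with TMM factors (adjusted p = 0.0611) and without Col-0 replicate 3 (0.0640), epl1ab-labelled replicate 1 (0.0553) or replicate 2 (0.0501).

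The surface-type genes that fell were AtRLP13 and AtRLP50. AtRLP13 (chromosome 1, 27891494 to 27896436, minus strand) went from 1016, 1062 and 997 to 468, 471 and 429 normalised reads, a log2 fold change of -1.17 ± 0.09 (edgeR adjusted p = 1.27e-05), with tight replicates. AtRLP50 went from 155, 95.6 and 175 to 72.7, 38.6 and 49.4, a change of -1.40 ± 0.31 (edgeR adjusted p = 0.00304). All 2757 bases of AtRLP50 lie inside an antisense long non-coding RNA gene, AT4G13918, so the strand of its reads cannot be told apart.

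Summed over the 53, normalised reads came to 10716, 11314 and 10809.5 in Col-0 and to 10739.7, 11176.5 and 11124 in the epl1ab-labelled libraries, so the sums overlap between genotypes under the recovered scaling. Under other scalings they do not: the epl1ab-labelled sums were 8553, 8091 and 7945 with TMM factors and 5574, 5009 and 4822 with DESeq2's own size factors, below every Col-0 sum under the same scaling. Under the recovered scaling the 41 higher members went from 2926, 2722 and 2965 to 7687.5, 8435 and 8549.6, and the 12 lower members from 7790.0, 8592 and 7845 to 3052, 2741 and 2575. Reads are not corrected for gene length in these sums, so they weigh long genes more.

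Per kb of exon, with RefSeq exon lengths, the order of levels changed at the top. Because members were listed by direction, moves up by genes listed higher and down by genes listed lower were partly fixed beforehand. The 8 members with the highest mean level in Col-0 were all listed lower: AT5G63020 at 445.0 normalised reads per kb, AtRLP13 at 278, AT1G69550 at 269, CW9 at 258, AT1G61300 at 243, AT5G40060 at 220.3, AT1G62630 at 209 and AT1G56520 at 130.3. ADR1 followed at 123. In the epl1ab-labelled libraries the 5 highest were all listed higher: ADR1 at 247, AT4G16857 at 215, AtRLP34 at 211.5, AT5G41740 at 209 and AT1G58400 at 195, with AT5G63020 the sixth at 192. AT5G40060 moved from the sixth place to rank 47, at 9.25 per kb. Median levels per kb went from 10.2 to 37.3 for the 41 higher members and from 215 to 45.02 for the 12 lower members. Over all listed genes the medians were 22.7 and 95.4 for those listed higher, and 894 and 308 for those listed lower, so members of either direction had lower medians than the genes listed beside them. In both sets the genes listed lower had the higher median in Col-0, and still had it in the epl1ab-labelled libraries.

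**Figure D3:**
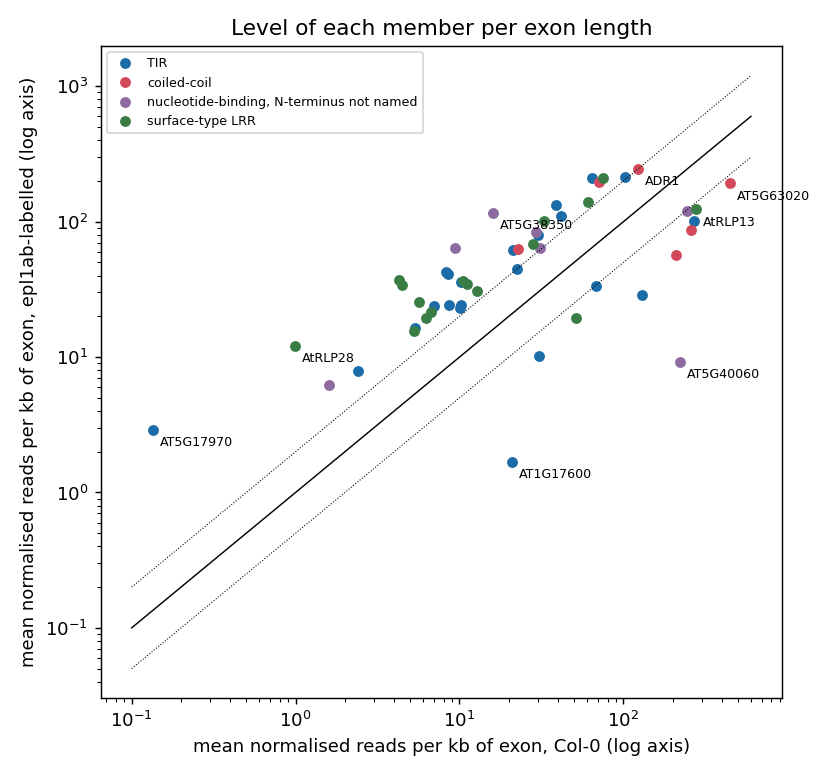
Mean normalised reads per kb of exon in Col-0 (horizontal, log axis) and in epl1ab-labelled libraries (vertical, log axis) for the 51 members with reads in Col-0, coloured by RefSeq class; the solid line is equality and the dotted lines a 2-fold difference. The 8 members farthest to the right are all below the line, and AT5G40060 (220.3 to 9.25 per kb) and AT1G17600, which is SOC3, lie farthest below the line.

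Many members lie beside each other in the genome. With starts within 50 kb of each other, 24 of the 53 fell into 11 runs, and 10 of these runs held 1 direction. The exception was AT4G13820, listed at a log2 fold change of 1.65, with AtRLP50 at -1.40, which start 35.9 kb apart. Within 20 kb there were 9 runs with 19 members, all of 1 direction, and within 200 kb 11 runs with 26 members, of which 9 held 1 direction. These counts take members only. The TIR-class gene CHL1, outside the description rule, starts at 16041919 on chromosome 5 and was listed higher at 1.17. It lies near AT5G40060, which starts at 16034441 and was listed lower at -4.57. With 66.1% of all listed genes higher, whether neighbours share a direction more often than other listed genes was not tested.

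A run of 3 TIR genes on chromosome 5 rose by edgeR: AT5G45200 (18283663 to 18290478, minus strand), AT5G45210 (18295437 to 18298642, plus strand) and AT5G45220 (18298774 to 18301166, minus strand). AT5G45220 held 19.0, 20.4 and 7.32 normalised reads in Col-0 and 61.5, 88.7 and 90.4 in the epl1ab-labelled libraries (log2 fold change 2.33 ± 0.35, edgeR adjusted p = 0.000404). AT5G45210 rose by 1.78 ± 0.32 and AT5G45200 by 1.69 ± 0.32 in log2 fold change (edgeR adjusted p = 0.000964 and 0.00124). With DESeq2's own size factors AT5G45200 (log2 fold change 0.59, adjusted p = 0.345) and AT5G45210 (0.66, adjusted p = 0.184) lose their calls. Of the 7 TIR or nucleotide-binding genes that RefSeq annotates within 50 kb of this run, the other 4 were not listed. RPS4 and RRS1, a well-studied pair of TIR receptors, were not listed.

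In 3 other runs every annotated TIR or nucleotide-binding gene within 50 kb was listed higher. AT2G17050 and AT2G17060 have AT2G17055, outside the description rule, between them at 2.94 (log2) in the authors' deposited table. Reads of AT2G17055 were few, with 3, 1 and 0 in Col-0 and 8, 18 and 10 in the epl1ab-labelled libraries. It did not pass the edgeR filter. AT5G38340 and AT5G38350 have AT5G38344 between them at 4.74, with only 0, 1 and 4 reads in Col-0 against 39, 56 and 73. AT5G41740 and AT5G41750 have no other. With DESeq2's own size factors 1 member of each of these runs loses its call. These are AT2G17050 (log2 fold change 0.36, adjusted p = 0.300), AT5G38340 (0.29, adjusted p = 0.198) and AT5G41750 (0.29, adjusted p = 0.204). AT5G41740 and AT5G41750 share some sequence with other loci, with 13.2% and 12.3% of 50-base exon windows found elsewhere in the genome, so reads may be split between copies. By contrast, AT4G16857 and AT4G16940, in the cluster that holds RPP4, RPP5 and SNC1, were 2 listed genes of 10 annotated, and 19.95% and 29.8% of their windows occur elsewhere. Both lose the call with DESeq2's own size factors. The surface-type run AtRLP36, AtRLP37 and AtRLP38 rose by 1.79 ± 0.17, 1.201 ± 0.13 and 3.12 ± 0.30 in log2 fold change (edgeR adjusted p = 3.38e-05, 5.66e-05 and 3.73e-05). AtRLP38 keeps the call with DESeq2's own size factors. AtRLP36 (log2 fold change 0.69, adjusted p = 0.0708) and AtRLP37 (0.10, adjusted p = 0.712) lose it there. AtRLP37 lies whole within a protein-coding gene on the opposite strand, AT3G23100, which was not listed.

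**Figure D4:**
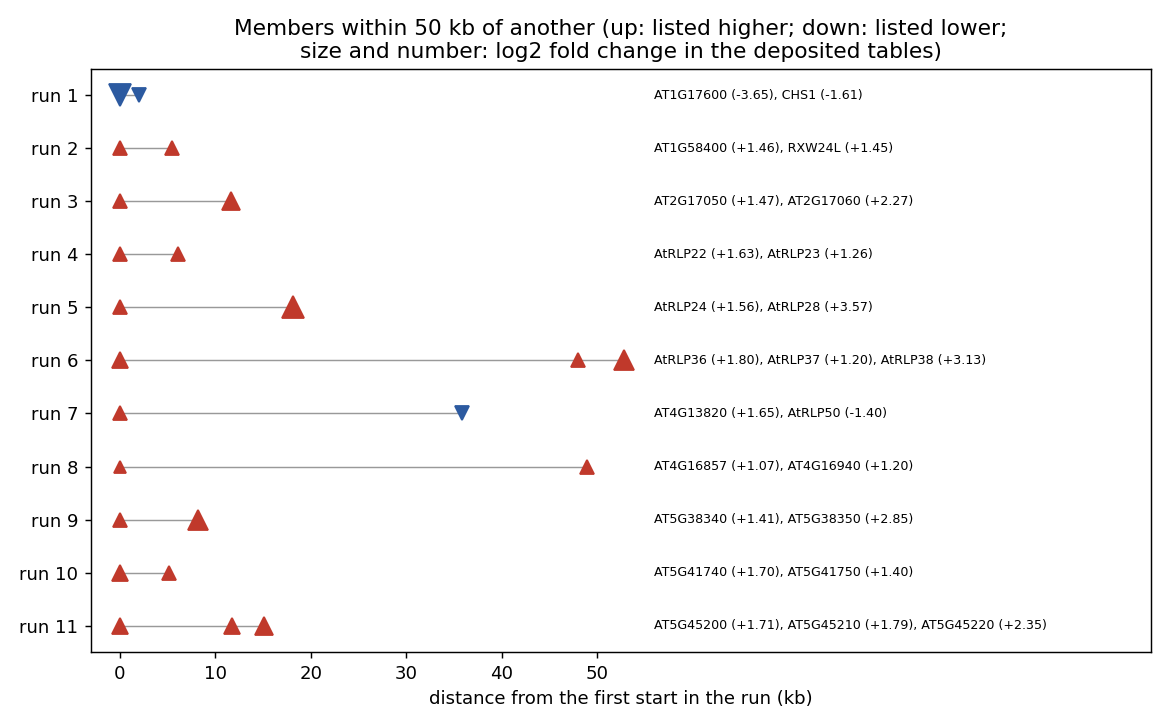
The 11 runs of members whose starts lie within 50 kb of the next; the horizontal axis is the distance from the start of the leftmost gene in kb, upward triangles are genes listed higher, downward triangles genes listed lower, and size and number give the log2 fold change in the authors' deposited tables. Run 1 (SOC3, drawn as AT1G17600, with CHS1) is all lower, run 7 holds both directions and the other 9 are all higher.

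Among 32 genes that signal from or assemble NLRs, 5 were listed, 4 higher and 1 lower, and edgeR called the same counts; over all annotated protein-coding genes 12.3% were listed higher and 6.28% lower, so these counts are near the background. PAD4, the lipase-like partner of EDS1 that works with ADR1, rose from 151, 150.4 and 177 to 779, 817 and 820.1 normalised reads, by 2.34 ± 0.12 on the log2 scale (edgeR adjusted p = 2.26e-06), with no overlap. BAP1, a C2-domain protein that restrains NLR-dependent cell death with BON1, rose by 2.44 ± 0.18 (edgeR adjusted p = 1.12e-05), and its homologue BAP2 had 3 reads in Col-0 and 46 under the other label, a ratio of 12.5 with a 95% exact interval of 4.00 to 62.6. EDS1B, the close homologue of EDS1 beside it on chromosome 3, went from 53.0, 38.7 and 76.9 to 4.33, 3.86 and 3.35 normalised reads (log2 fold change -3.82 ± 0.38, edgeR adjusted p = 4.28e-05). ADR1 is the fourth gene listed higher, with values as above. The other 27 were not listed, EDS1, SAG101, NDR1, RIN4 and the NRG1 helpers among them. With DESeq2's own size factors, 2 of the 4 were called higher.

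Genes of the salicylic acid arm, which lies downstream of these receptors, were listed higher in 7 of 11 cases and lower in 0, where 12.3% of annotated protein-coding genes were listed higher, and edgeR called 7 higher. With DESeq2's own size factors 2 of the 7, PR1 and PR2, keep the call. EDS5, which exports the salicylic acid precursor from the plastid, rose from 254, 255 and 276 to 555, 813 and 662 normalised reads (log2 fold change 1.37 ± 0.16, edgeR adjusted p = 9.22e-05). PBS3, the enzyme that conjugates that precursor to glutamate, rose by 1.31 ± 0.25 (edgeR adjusted p = 0.00139), and SARD1, a transcription factor for these genes, by 1.54 ± 0.33 (edgeR adjusted p = 0.00247). The marker PR1 held 41.0, 25.8 and 45.1 normalised reads in Col-0 and 794, 3101 and 1682 in the epl1ab-labelled libraries (5.64 ± 0.56, edgeR adjusted p = 4.59e-05). All epl1ab-labelled values of PR1 were above all Col-0 values, though they differ among themselves by a wide margin. PR2 and PR5 rose by 3.12 ± 0.52 and 1.31 ± 0.16 (edgeR adjusted p = 0.000632 and 0.000118). ALD1, which makes the pipecolic acid precursor, was called at 1.93 ± 0.61 (edgeR adjusted p = 0.0153) and loses the call without epl1ab-labelled replicate 2 (adjusted p = 0.0514). SID2, NPR1, FMO1 and CBP60g were not listed.

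Receptors with a described function were mostly not listed. Of 42 such NLRs, 38 were not listed, ADR1 was higher, and SOC3, CHS1 and LOV1 were lower. LOV1, the gene for sensitivity to the fungal toxin victorin, is not a member by its deposited description and went from 460.0, 496 and 451 to 169, 162 and 146 normalised reads (log2 fold change -1.56 ± 0.12, edgeR adjusted p = 1.21e-05). Read against the whole annotation, 182 genes carry a TIR or nucleotide-binding resistance product in RefSeq, of which 34 were listed higher (18.7%), 13 lower (7.1%) and 135 not at all, where 12.3% of 27562 protein-coding genes were listed higher and 6.28% lower. For the 132 TIR genes of the annotation the shares were 19.7% and 5.3%, for the 25 coiled-coil genes 12% in each direction, and for 52 receptor like proteins 36.5% and 7.7%. Values of genes that were not listed were not analysed here, so nothing is said of their change.

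The epl1ab-labelled libraries that stand apart in seed maturation genes did not stand apart in the members. The mean of replicates 2 and 3 over replicate 1 had a median of 1.05 over the 53 members, with a range of 0.577 to 2.77, and a median of 1.06 over all listed genes. None of the members, 0 of 53, exceeded its replicate 1 level by more than 8-fold in replicate 2 and also in replicate 3. Among all 5330 listed genes 174 did, which is also a small share, so 0 of 53 does not set the members apart from listed genes. When replicate 1 stood alone for the epl1ab label, whose spread is then assumed to be that of Col-0, 36 members were called higher and 12 lower. AtRLP24 (adjusted p = 0.0676), RPP13L2 (0.138) and, outside the members, ALD1 (0.215) lose their edgeR calls there.

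**Figure D5:**
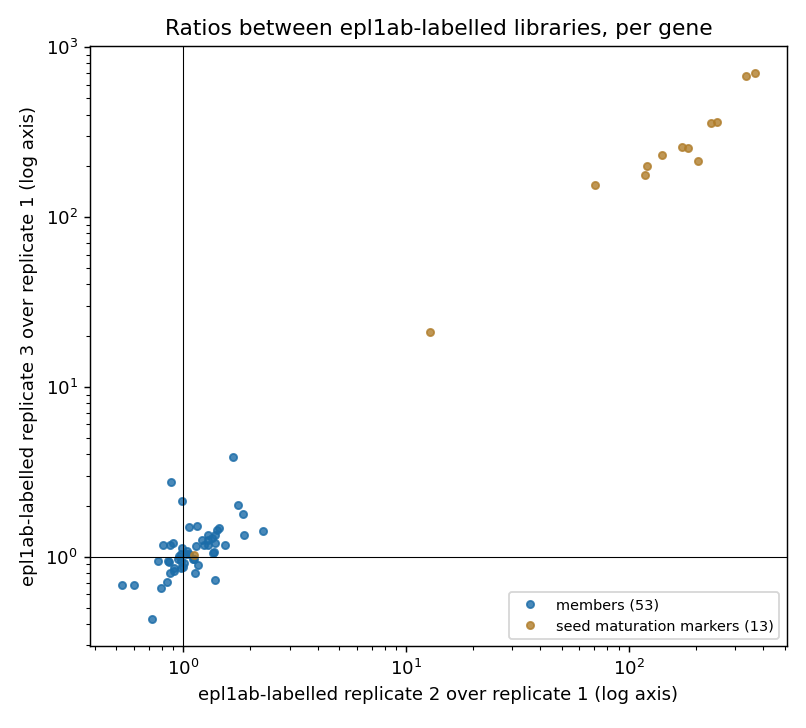
Ratio of normalised reads in epl1ab-labelled replicate 2 over replicate 1 (horizontal, log axis) and replicate 3 over replicate 1 (vertical, log axis) for each of the 53 members and for 13 seed maturation markers with reads in replicate 1. The members gather around 1 on both axes, and 12 of the markers lie above 10-fold on both.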

How the data were processed

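Whole seedlings of both genotypes gave 3 libraries each, made per the labels' protocols from ribosome-depleted total RNA with a stranded kit. The submitters' processing notes name TAIR10 and DESeq2; neither the aligner, nor the counter, nor the use of strand is given in the sources used here. Per the file headers, the authors' deposited tables hold raw read counts per gene and library, log2 fold changes and, for each gene, a p-value with its false discovery rate. Tested on the values, log2 fold changes are 1 or more in size and false discovery rates under 0.05 for every listed gene.

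The authors' scaling was recovered by least squares from their log2 fold changes over 1774 genes that had 200 reads or more in each library (median absolute residual 0.000289). edgeR 4.0.16 (limma 3.58.1, R 4.3.3) used these factors as library sizes, its expression filter and no replicate block. It was tried on simulated counts in which most genes did not change. The listed genes were all selected as changed, so that trial does not give the error rate of this fit. It called all 4773 genes that entered it; all of them had been selected by the authors on the same libraries. SEs are the absolute log2 fold change over the root of the F statistic. DESeq2 1.42.0 was an alternative. The rest was done in Python 3.11.15 with pandas 2.3.3, numpy 2.4.6 and scipy 1.17.1.

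Products, exons, promoters and neighbours came from RefSeq's TAIR10.1 annotation; 53 of 53 members matched a product and 52 had the same ends. Coordinates of genes are as deposited. The RefSeq classes were chosen after seeing the data, because the descriptions left 34 members without a class. The members and lists were chosen with earlier results of these data known. Named genes are listed genes of 4 lists (NLRs with described function, signalling and assembly, salicylic acid arm, targeted genes), the 8 largest rises and falls among members at or above their direction's median level, and runs of 3 or more members. Members named outside that rule were chosen after their values were seen. P-values measure the spread between these libraries.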

Additional observations from a re-analysis of the deposited data

How the results depend on the processing

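The 12 lower calls held under each tool, scaling, filter and left-out library, with 12 in every fit of all members. TMM factors and DESeq2's own size factors move the median of all log2 fold changes by -0.43 and -1.11. Both shifts favour lower calls, so the 12 under these scalings do not show lower calls to be sturdier than higher ones. With DESeq2 and size factors of the listed genes, the higher calls went from 39 to 13 over the members, from 13 to 4 in the TIR class by description from 4 to 2 in the signalling list, from 7 to 2 in the salicylic acid arm and, by RefSeq class, from 17 to 5 in TIR, 3 to 0 in coiled-coil, 5 to 2 in genes without a named N-terminus and 14 to 6 in surface-type genes, and the log2 fold changes of ADR1 (-0.11), AT1G50180 (-0.073), AT4G14370 (-0.088) and AT4G16857 (-0.04) changed sign; the shift of -1.11 in all log2 fold changes under that scaling is of this size. Those size factors come only from genes selected as changed, so they cannot decide which higher calls hold. Counting only nucleotide-binding members gave 25 higher and 10 lower, by fewer genes. Class by RefSeq product gave 3 coiled-coil genes higher and 3 lower in place of 0 and 1. Leaving out 1 library gave 37 to 39 members higher and 12 lower, and DESeq2 with the recovered factors gave 41 and 12. Deviations of same-numbered libraries from their genotype's mean correlated at -0.28, -0.04 and -0.21. With 3 libraries per genotype such deviations cancel out, so these values cannot decide whether same-numbered libraries shared an experiment. A fit with the replicate number as a block called 39 higher and 12 lower. That fit changed no call among the 72 genes followed singly. Low read counts limit AT5G17970, AT5G49140, AT3G51570, RPP13L2 and AtRLP28 and, outside the members, AT2G17055, AT5G38344, AT4G08450 and BAP2.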

Other observations

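RefSeq gives a TIR or nucleotide-binding product to 10 listed genes whose deposited descriptions did not meet the rule for members, 7 listed higher and 3 lower; all 10 are named or counted here after their values were seen. AT4G08450 went from a mean of 9.17 normalised reads in Col-0 to 0 in the epl1ab-labelled libraries, and AT5G45000, a TIR-class gene, fell from 14, 15.04 and 30.5 to 4.33, 0.965 and 3.35 (log2 fold change -2.68 ± 0.54, edgeR adjusted p = 0.00188). CHL1, AT1G72850, AT4G09420, AT5G44900 and AT2G20142 were listed higher at log2 fold changes of 1.17, 1.61, 1.75, 2.40 and 2.48 in the authors' deposited table. With these 10 genes added to the 53, edgeR called 45 higher and 14 lower.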
